A study of Homo sapiens with 10 samples.

Results

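The aminoacyl-tRNA synthetase genes are described here in MEG-01, a line of human megakaryoblastic leukemia cells, after transfection with the microRNA miR-1225-3p. The 38 genes were chosen by name: 20 encode enzymes of the cytosol, 16 encode enzymes of the mitochondria, and AIMP1 and AIMP2 encode scaffold proteins that hold several cytosolic enzymes in a multisynthetase complex. An array probe was matched to 37 of them, among 35267 gene names or, where a probe had no name, array identifiers, all counted here as genes. CARS, the cytosolic cysteinyl-tRNA synthetase gene, was not analysed here. MARS2, the mitochondrial methionyl-tRNA synthetase gene, was well above background on 0 of 10 arrays, so that 36 genes were tested among 17379.

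Aminoacyl-tRNA synthetases attach each amino acid to its tRNA, the step that fixes which amino acid a codon yields on the ribosome. Most cells keep separate nuclear genes for the cytosolic and the mitochondrial enzyme of an amino acid, while GARS and KARS each supply both compartments and EPRS joins 2 enzymes, for glutamate and proline, in a single protein. When amino acids run short, uncharged tRNA activates the kinase GCN2 and the transcription factor ATF4, which is known to induce many cytosolic synthetase genes, and megakaryocytes load the proteins made in this way into platelets.

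Both groups were MEG-01 cells transfected by nucleofection with 200 nM of a precursor molecule and collected after 24 hours. One group received the miR-1225-3p precursor and the other a scrambled negative control precursor, and each group had 5 arrays from independent experiments run at the same time. No animal or donor was involved, all cells were of a single leukemia line, and the transfected level of the microRNA itself was not analysed here. For the scrambled group, the titles name the scrambled transfection and the source label gives no treatment, and the titles were used.

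The mature microRNA is shown because it is the agent in which the groups differ. Its seed, bases 2 to 8, is in capitals, 5′ to 3′, from the RefSeq annotation of GRCh38.p14 (chr16:2090195-2090216, minus strand). Of 2370 mature human microRNA names in that table, 0 others carried this seed.
hsa-miR-1225-3p: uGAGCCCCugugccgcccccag

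Signal was read in a single Cy3 channel and is given as log2 processed signal after cyclic loess normalization, in arbitrary units that do not compare one gene with another. Spots well above background made up 41.95% to 53.85% of each array in the miR-1225-3p group and 43.09% to 61.18% in the scrambled group. Precision is limited by the number of arrays. The filter on dim probes kept 8 megakaryocyte markers. The mean log2 signal of these 8 ranged from 7.84 to 8.74 on the miR-1225-3p arrays and from 8.72 to 8.86 on the scrambled arrays. The value of 8.74 was that of miR-1225-3p replicate 5, and the median over the 5 miR-1225-3p arrays was 7.95. Past an adjusted p of 0.05 in limma were 2 of the 8, both lower (25%, beside 35% of all genes): ITGA2B, which encodes the platelet integrin alpha IIb, fell by 1.39 on the log2 scale (adjusted p = 0.0437 from limma) and NFE2 by 0.43. Of the other 6, GP6 had a positive value, 0.43 (adjusted p = 0.0977 from limma), and 5 had negative values. When miR-1225-3p replicate 5 was left out, 6 of the 8 passed, 1 higher and 5 lower, beside 55.4% of all genes. Of 8 markers of other cell types, 5 were kept, with means from 6.82 to 7.86 on the miR-1225-3p arrays and from 6.62 to 7.20 on the scrambled arrays. Of these 5, 2 passed, both higher (40%, beside 35% of all genes): EPCAM rose by 0.90 on the log2 scale, and CD3E had 1.96 but was well above background on 3 miR-1225-3p arrays and 1 scrambled array, so that it entered the test only through the group in which it was higher. CD14 had 0.36, PECAM1 -0.43 and COL1A1 -0.75, none past the threshold. Of the 5, 3 passed with miR-1225-3p replicate 5 left out, 2 higher and 1 lower, beside 55.4% of all genes. The part of these markers in the results below was not tested, and in cultures measured in bulk, fewer cells of a kind and less RNA per cell cannot be told apart.

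The miR-1225-3p replicate 5 array stood near the scrambled arrays in the cytosolic synthetase genes. For the 19 cytosolic genes the median absolute difference from the scrambled mean was 0.14 on it, against 0.42, 0.44, 0.49 and 0.61 on replicates 1 to 4 of its group and between 0.09 and 0.17 on the scrambled arrays, each scrambled array being set against the other 4. For the 15 mitochondrial genes the same value was 0.18 on replicate 5, against 0.26, 0.19, 0.53 and 0.68 on replicates 1 to 4. On the scrambled arrays it was between 0.10 and 0.21, a range that also held miR-1225-3p replicate 2. All 10 arrays were kept in the comparison, and the counts called and the values of the called synthetase genes are also given without miR-1225-3p replicate 5. That array was picked out by the values of these same genes. Leaving out a treated array that lies near the controls tends to enlarge the changes. The larger counts and changes without it are therefore a description and no added support.

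Synthetase genes moved in both directions in miR-1225-3p transfected cells. By limma with Benjamini-Hochberg adjustment over all genes tested, 12 of 36 passed an adjusted p of 0.05 (33.3%), 8 higher and 4 lower, where 35% of all 17379 genes passed, 17% higher and 18.1% lower. The share of synthetase genes called was therefore close to the background. The 2 groups of arrays did not overlap for 5 of the 36, 4 higher and 1 lower (13.9%), against 12.7% of all genes, 7.98% higher and 4.74% lower. The median of the log2 fold change, miR-1225-3p over scrambled and called log2 change from here on, was -0.07, beside -0.06 over all genes, and the median absolute log2 change was 0.38, beside 0.51. Without miR-1225-3p replicate 5 the number called was 19, 11 higher and 8 lower, with 55.4% of all genes called (26.4% higher and 29% lower), and all 12 of the genes called on 10 arrays were among them. The groups then did not overlap for 17 of the 36, against 46% of all genes.

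**Figure D1:**
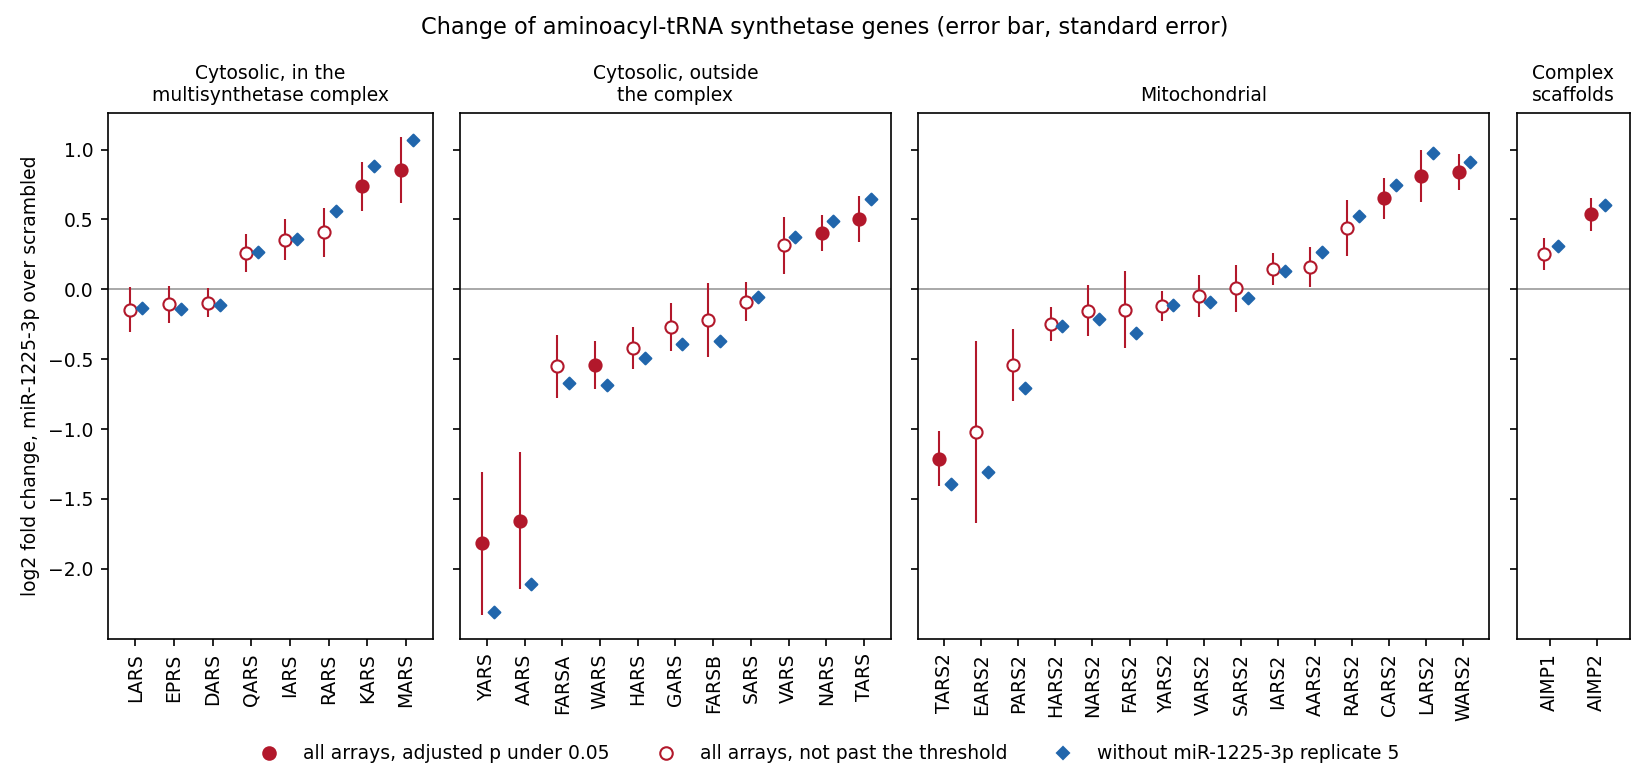
Log2 fold change of each of the 36 genes tested, miR-1225-3p over scrambled, by place in the cell, with the standard error as a bar; filled circles passed an adjusted p of 0.05 in limma and open circles did not, and diamonds give the value without miR-1225-3p replicate 5. YARS at -1.82 and AARS at -1.65 lay lowest, MARS at 0.85 and WARS2 at 0.84 highest, and leaving out the array moved most of the called genes farther from 0.

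The cytosolic genes that were lower past the threshold were those for the enzymes of tyrosine, alanine and tryptophan. YARS, the tyrosyl-tRNA synthetase gene, read 7.44, 6.87, 6.72, 6.14 and 9.27 on miR-1225-3p replicates 1 to 5 and 8.81, 8.65, 9.29, 9.04 and 9.74 on scrambled replicates 1 to 5. Replicates 1 to 4 of miR-1225-3p lay below every scrambled array and replicate 5 lay among them. The log2 change was -1.82 (standard error, SE, 0.511, 95% confidence interval -2.95 to -0.68, adjusted p = 0.0259 from limma, exact two-sided permutation p = 0.0317), which is 3.52-fold lower. AARS, the alanyl-tRNA synthetase gene, read 6.89, 6.41, 6.34, 5.53 and 8.57 on the miR-1225-3p arrays and 8.02, 7.90, 8.73, 8.33 and 9.03 on the scrambled arrays. It had the same overlap at replicate 5, and its log2 change was -1.65 (SE 0.492, interval -2.75 to -0.56, adjusted p = 0.0299 from limma, exact permutation p = 0.0317). Among the arrays of each group, replicate 4 was lowest and replicate 5 highest in miR-1225-3p cells for both genes, and replicate 2 was lowest and replicate 5 highest in scrambled cells.

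WARS, the tryptophanyl-tRNA synthetase gene, which interferon is known to induce, read 10.98, 11.08, 11.04, 11.11 and 11.76 on the miR-1225-3p arrays and 12.00, 11.72, 11.70, 11.59 and 11.67 on the scrambled arrays. Replicates 1 to 4 formed a tight group below the scrambled arrays, and replicate 5 was higher than 4 of the 5 scrambled arrays. The log2 change was -0.54 (SE 0.171, adjusted p = 0.0358 from limma, exact permutation p = 0.0397). Without miR-1225-3p replicate 5 the log2 changes of YARS, AARS and WARS were -2.31, -2.11 and -0.68. Each of the 3 calls rested on single arrays. YARS was no longer past the threshold without any one of miR-1225-3p replicates 2, 3 and 4 and scrambled replicates 3, 4 and 5 (highest adjusted p = 0.0647), and AARS kept its call only without miR-1225-3p replicate 5 or scrambled replicate 2 (highest adjusted p = 0.0719). WARS kept its call only without miR-1225-3p replicate 5 (highest adjusted p = 0.0845), and its log2 change was -0.05 (adjusted p = 0.826 from limma) when each array was scaled by its 75th percentile.

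GARS, the glycyl-tRNA synthetase gene that serves both the cytosol and the mitochondria, read 9.86, 9.59, 9.83, 9.29 and 10.25 on the miR-1225-3p arrays and 10.06, 10.10, 10.01, 10.04 and 9.95 on the scrambled arrays. The miR-1225-3p replicates 1 to 4 lay below all scrambled arrays and replicate 5 lay above all of them. On 10 arrays its log2 change was -0.27 (interval -0.65 to 0.11, adjusted p = 0.232 from limma, exact permutation p = 0.151), and without replicate 5 it was -0.39 (adjusted p = 0.035). With scaling to the 75th percentile it turned to 0.12 (adjusted p = 0.488 from limma).

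The cytosolic genes that were higher past the threshold were those for the enzymes of lysine, methionine, threonine and asparagine. KARS, the lysyl-tRNA synthetase gene, which also supplies both compartments, read 13.07, 12.95, 12.91, 12.62 and 12.14 on the miR-1225-3p arrays and 11.97, 11.99, 12.02, 12.06 and 11.96 on the scrambled arrays. It was the only cytosolic gene whose groups did not overlap, replicate 5 being the lowest miR-1225-3p array. The log2 change was 0.74 (SE 0.176, interval 0.34 to 1.13, adjusted p = 0.0175 from limma, exact permutation p = 0.00794, the smallest that 5 against 5 arrays allow). MARS, the methionyl-tRNA synthetase gene, read 11.49, 11.62, 11.67, 11.96 and 10.61 on the miR-1225-3p arrays and 10.77, 10.75, 10.45, 10.36 and 10.76 on the scrambled arrays. Replicates 1 to 4 lay above every scrambled array and replicate 5 lay among them, with a log2 change of 0.85 (SE 0.237, adjusted p = 0.0248 from limma, exact permutation p = 0.0317). MARS had another, dimmer probe kept, which read 7.29 on average in miR-1225-3p cells and 7.23 in scrambled cells and had a log2 change of 0.06 (adjusted p = 0.795 from limma over kept probes). The rise of MARS was thus seen at 1 of its 2 kept probes.

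TARS, the threonyl-tRNA synthetase gene, rose by 0.50 on the log2 scale (adjusted p = 0.0389 from limma) and NARS, the asparaginyl-tRNA synthetase gene, by 0.41 (adjusted p = 0.0369 from limma). TARS read 12.28 to 12.41 on miR-1225-3p replicates 1 to 4 and 11.65 on replicate 5, with scrambled arrays between 11.62 and 11.78. Without replicate 5 the log2 changes of KARS, MARS, TARS and NARS were 0.88, 1.07, 0.64 and 0.49. KARS stayed past the threshold when any single array was left out. MARS was no longer past it without any one of miR-1225-3p replicates 2, 3 and 4 and scrambled replicates 3 and 4, and TARS and NARS passed only when miR-1225-3p replicate 5 was the array left out. With the slide as a block, NARS had an adjusted p of 0.0525 from limma.

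In all, 7 of 19 cytosolic genes passed the threshold, 4 higher and 3 lower (36.8%, beside 35% of all genes), and the median log2 change of the 19 was -0.10. Without miR-1225-3p replicate 5, 11 passed, 5 higher and 6 lower, beside 55.4% of all genes. With scaling to the 75th percentile 10 passed, 8 higher and 2 lower, where 41.1% of all genes passed, 26.3% higher and 14.9% lower, and the median was 0.44, where the median over all genes was 0.16. On slide 1, which held 2 miR-1225-3p and 3 scrambled arrays, 6 of the 19 passed in limma, beside 25.9% of all genes. On slide 2, which held the other 3 and 2 and with them miR-1225-3p replicate 5, 0 of all 17379 genes passed in limma and so 0 of the 19, and at an unadjusted p of 0.05 these counts were 1220 and 0. The 12 cytosolic genes not past the threshold included HARS for histidine, with a log2 change of -0.42 (adjusted p = 0.0513 from limma), and FARSA and FARSB for the subunits of the phenylalanyl enzyme, with -0.55 and -0.22. RARS for arginine, IARS for isoleucine, VARS for valine and QARS for glutamine had 0.41, 0.36, 0.31 and 0.26. LARS for leucine, EPRS for glutamate and proline, DARS for aspartate and SARS for serine lay between -0.15 and -0.09, and these 4 turned to between 0.24 and 0.50 when scaled to the 75th percentile. IARS had 3 kept probes, with log2 changes of 0.36, -0.29 and -1.11, the last well above background on 1 miR-1225-3p array and 3 scrambled arrays, and the mean of its probes was -0.35.

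**Figure D2:**
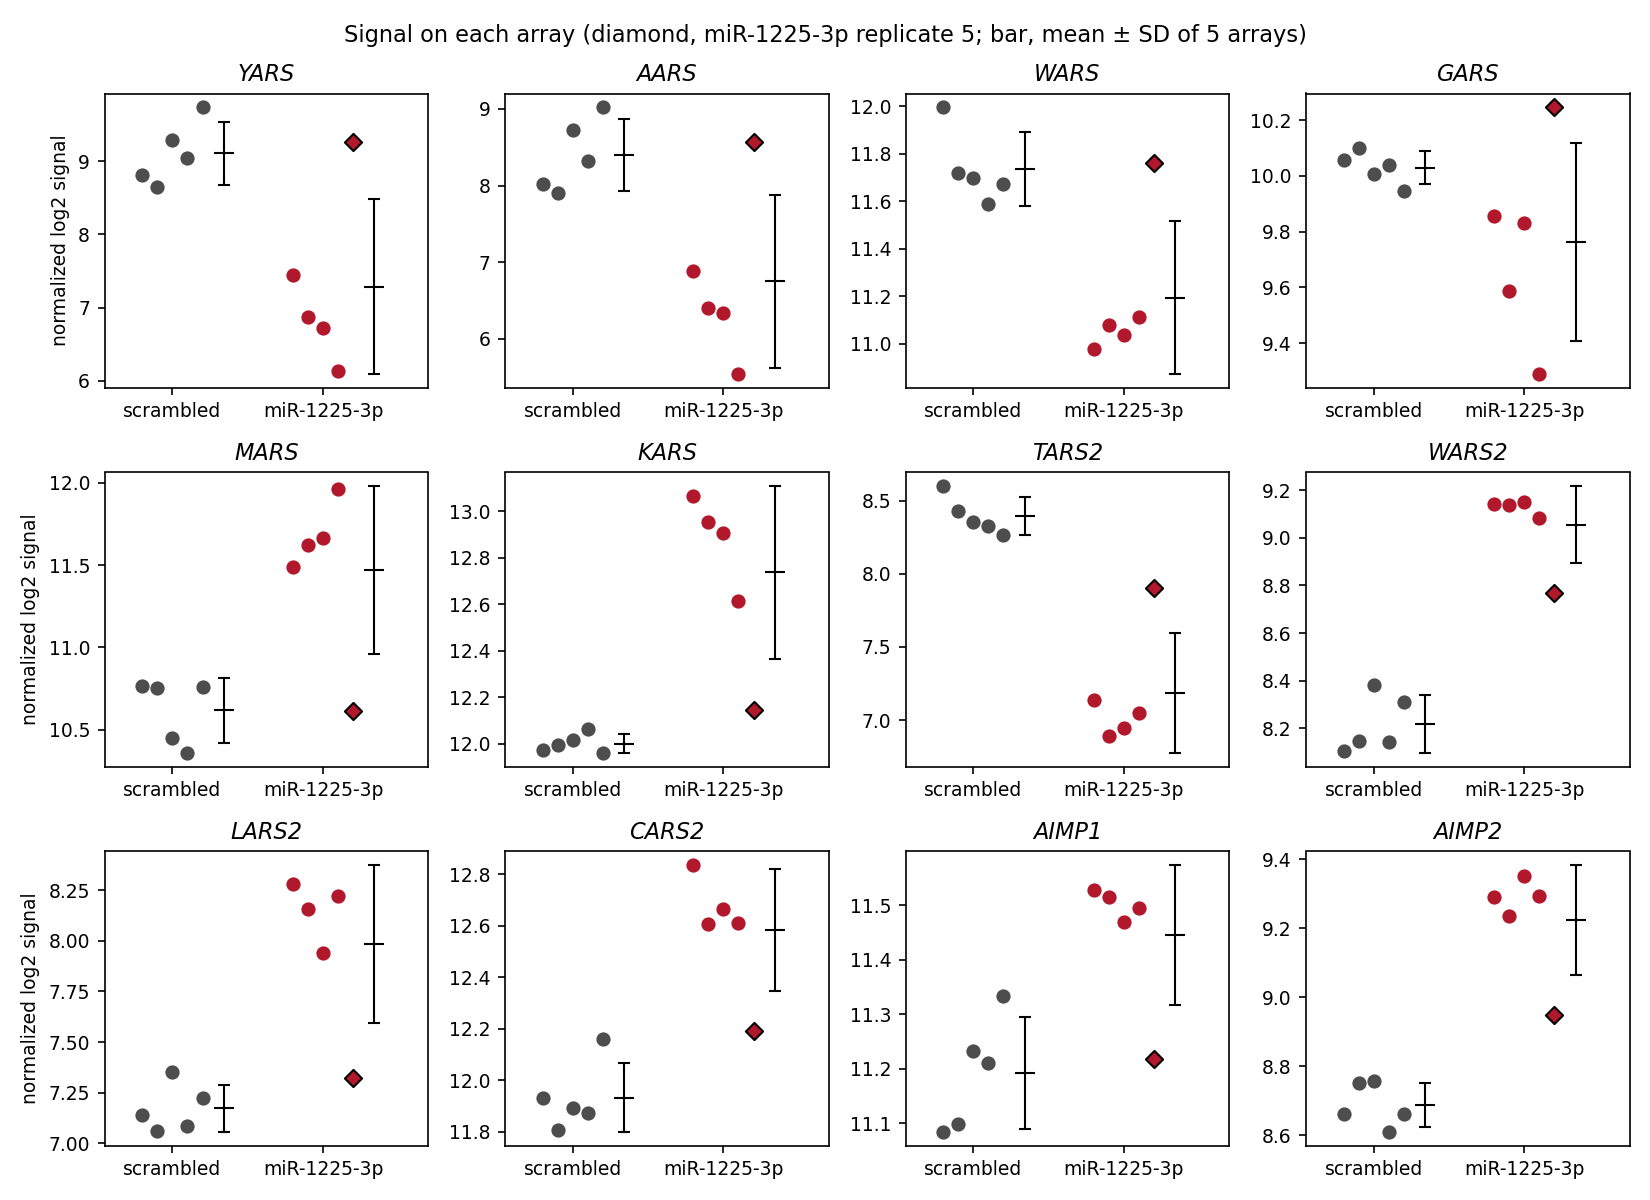
Normalized log2 signal of 12 genes on each array, scrambled in grey and miR-1225-3p in red, with the mean and SD of the 5 arrays as a black bar and miR-1225-3p replicate 5 as a diamond; the vertical axes differ between genes and do not start at 0. Replicates 1 to 4 lay apart from the scrambled arrays in every panel, and replicate 5 lay between them and the scrambled arrays or among the latter, except for GARS, where it was above all.

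The cytosolic genes were also set out by whether their enzyme belongs to the multisynthetase complex, a division made after the values were seen, so it was not tested. The 8 genes for enzymes in the complex (DARS, EPRS, IARS, KARS, LARS, MARS, QARS and RARS) had log2 changes between -0.15 and 0.85 with a median of 0.31, and 2 were higher past the threshold and 0 lower. The 11 measured genes for enzymes outside it had values between -1.82 and 0.50 with a median of -0.27, and 2 were higher and 3 lower. The shares called were 25% in the complex and 45.5% outside it, beside 35% of all genes, 17% higher and 18.1% lower. By array, the median difference from the scrambled mean in the complex genes was 0.31, 0.28, 0.46 and 0.11 on miR-1225-3p replicates 1 to 4 and 0.01 on replicate 5. In the other genes it was -0.17, -0.44, -0.39 and -0.62 on replicates 1 to 4 and 0.07 on replicate 5, and on the scrambled arrays both medians lay between -0.09 and 0.07. The genes outside the complex held the deepest falls, YARS and AARS, and 2 of the rises, TARS and NARS. The medians were 0.81 and -0.03 with scaling to the 75th percentile, and the median of the complex genes was 0.08 when the probes of a gene were averaged.

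**Figure D3:**
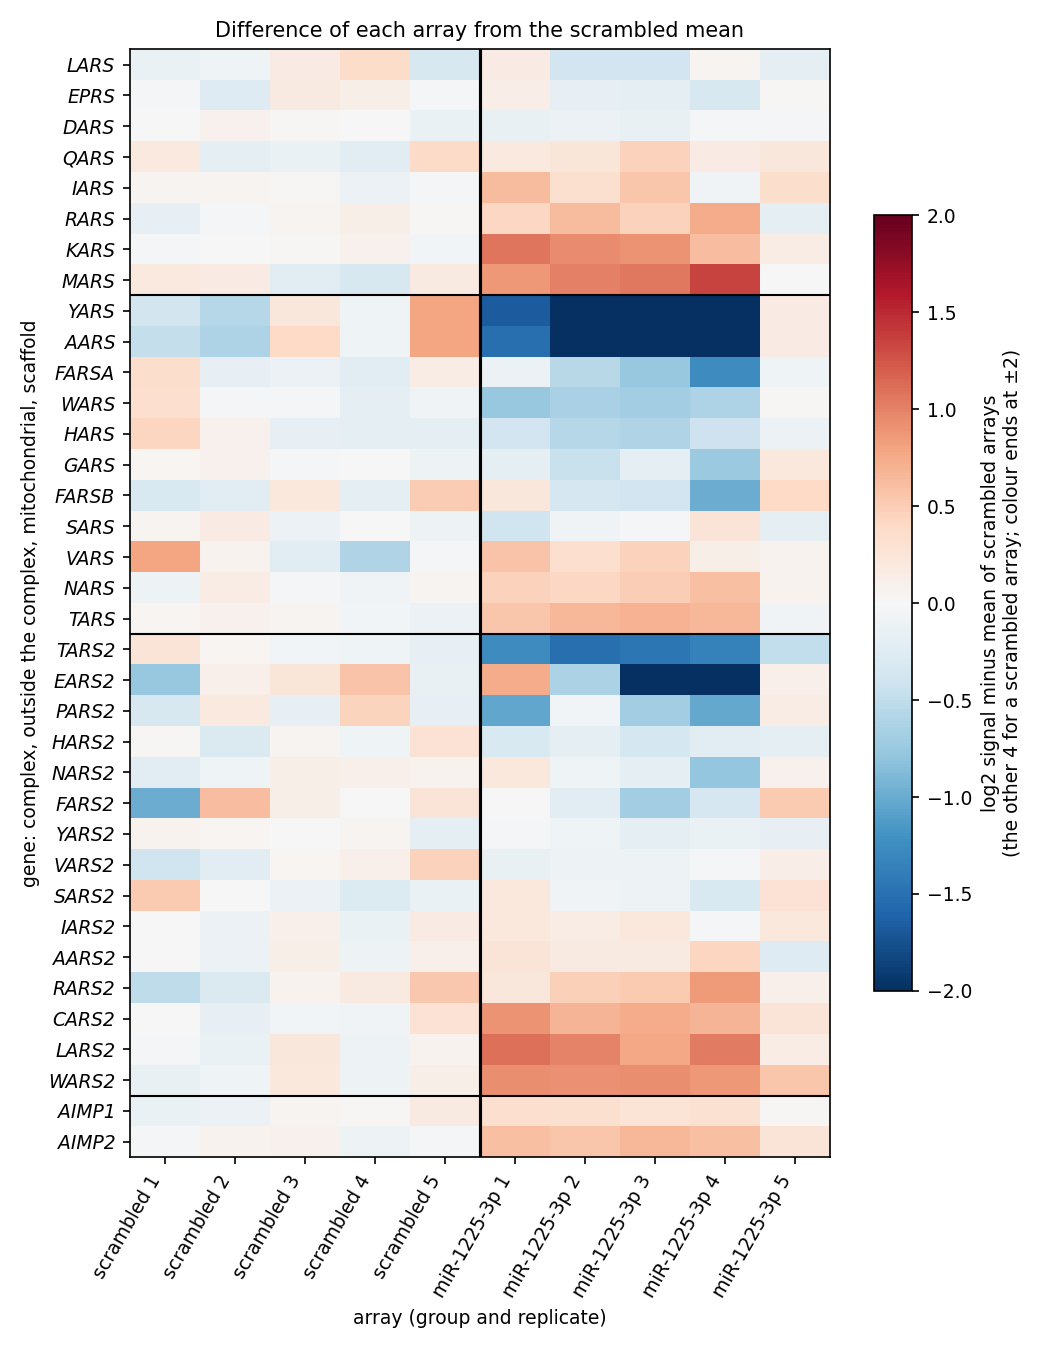
Difference of each array from the mean of the scrambled arrays in log2 signal, one row per gene tested and one column per array, with the colour scale ending at 2 in both directions; a scrambled array is set against the other 4. The rows of YARS, AARS and TARS2 are the darkest on miR-1225-3p replicates 1 to 4 among the called genes. In the column of replicate 5 the cytosolic genes are mostly pale, with a median absolute difference of 0.14.

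Mitochondrial genes higher past the threshold were those for the enzymes of tryptophan, leucine and cysteine, and the one for threonine was lower. WARS2, the mitochondrial tryptophanyl-tRNA synthetase gene, read 9.14, 9.14, 9.15, 9.08 and 8.77 on the miR-1225-3p arrays and 8.10, 8.15, 8.38, 8.14 and 8.31 on the scrambled arrays. Every miR-1225-3p array, replicate 5 included, lay above every scrambled array, and the log2 change was 0.84 (SE 0.126, interval 0.56 to 1.12, adjusted p = 0.0127 from limma, exact permutation p = 0.00794). LARS2, for the mitochondrial leucyl enzyme, read 8.28, 8.16, 7.94, 8.22 and 7.32 on the miR-1225-3p arrays and 7.14, 7.06, 7.35, 7.09 and 7.22 on the scrambled arrays. Its groups overlapped by a single pair of arrays, miR-1225-3p replicate 5 and scrambled replicate 3, and the log2 change was 0.81 (SE 0.188, adjusted p = 0.0165 from limma, exact permutation p = 0.0159). CARS2, for the mitochondrial cysteinyl enzyme, read 12.84, 12.61, 12.67, 12.61 and 12.19 on the miR-1225-3p arrays and 11.93, 11.81, 11.89, 11.87 and 12.16 on the scrambled arrays. The groups did not overlap, replicate 5 of each being the arrays nearest to each other, and the log2 change was 0.65 (SE 0.145, adjusted p = 0.0155 from limma, exact permutation p = 0.00794).

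TARS2, the mitochondrial threonyl-tRNA synthetase gene, read 7.14, 6.89, 6.95, 7.05 and 7.91 on the miR-1225-3p arrays and 8.60, 8.43, 8.36, 8.33 and 8.27 on the scrambled arrays. All miR-1225-3p arrays lay below all scrambled arrays, with replicate 5 nearest to them. The log2 change was -1.21 (SE 0.197, interval -1.65 to -0.78, adjusted p = 0.0136 from limma, exact permutation p = 0.00794), which is 2.32-fold lower. Without miR-1225-3p replicate 5 the log2 changes of WARS2, LARS2, CARS2 and TARS2 were 0.91, 0.98, 0.75 and -1.39. These 4 genes stayed past the threshold when any single array was left out and with the slide as a block. On slide 1 their log2 changes were 0.87, 0.98, 0.73 and -1.39, all past the threshold, and on slide 2 they were 0.86, 0.75, 0.65 and -1.08, at an adjusted p of 0.494 in limma.

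Of 15 mitochondrial genes tested, 4 passed, 3 higher and 1 lower (26.7%), beside 35% of all genes, and their median log2 change was -0.05. Without miR-1225-3p replicate 5, 6 passed, 4 higher and 2 lower, beside 55.4% of all genes. Among the other 11, RARS2, the mitochondrial arginyl-tRNA synthetase gene, had the largest positive value at 0.44 (adjusted p = 0.104 from limma), and AARS2, IARS2 and SARS2, for alanine, isoleucine and serine, had 0.16, 0.15 and 0.01. HARS2, NARS2, FARS2, YARS2 and VARS2, for histidine, asparagine, phenylalanine, tyrosine and valine, lay between -0.25 and -0.05. EARS2, the glutamyl-tRNA synthetase gene, had -1.02 with a standard error of 0.651 (interval -2.47 to 0.42, adjusted p = 0.227 from limma). It was well above background on 3 miR-1225-3p and 4 scrambled arrays and read 6.48, 5.11, 3.32, 2.84 and 5.84 on the miR-1225-3p arrays against 5.13 to 6.20 on the scrambled arrays, so that replicate 1 was the highest of all 10 and replicates 3 and 4 the lowest. PARS2, the prolyl-tRNA synthetase gene, was also dim, well above background on 2 and 3 arrays, with -0.54 (adjusted p = 0.119 from limma). The cytosolic median was lower than the mitochondrial one by a difference of -0.05, which turned to 0.15 with scaling to the 75th percentile.

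The scaffold genes were both higher in value. AIMP2, which encodes the p38 scaffold of the complex, read 9.29, 9.24, 9.35, 9.29 and 8.95 on the miR-1225-3p arrays and 8.66, 8.75, 8.76, 8.61 and 8.66 on the scrambled arrays, without overlap. It rose by 0.54 on the log2 scale (SE 0.119, adjusted p = 0.0154 from limma, exact permutation p = 0.00794), and by 0.60 without miR-1225-3p replicate 5. AIMP1, for the p43 scaffold, read 11.53, 11.51, 11.47, 11.49 and 11.22 on the miR-1225-3p arrays and 11.08, 11.10, 11.23, 11.21 and 11.33 on the scrambled arrays. Replicate 5 alone overlapped, and the log2 change was 0.25 (interval -0.01 to 0.51, adjusted p = 0.109 from limma, exact permutation p = 0.0238), or 0.31 without that array (adjusted p = 0.0236 from limma). EEF1E1, which encodes the third scaffold protein of the complex and was listed with the charging partners, rose by 0.47 (adjusted p = 0.0245 from limma), its arrays between 10.90 and 11.34 in miR-1225-3p cells and between 10.48 and 10.79 in scrambled cells. Its call was lost without any one of miR-1225-3p replicates 1, 2 and 3 and scrambled replicates 1 to 4. In those fits only 2 charging partners, both other genes, stayed called.

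For 11 amino acids both the cytosolic and the mitochondrial gene were measured. Their log2 changes had the same sign in 4 pairs and opposite signs in 7, and these are descriptions without a test. The signs depended on the normalization. With scaling to the 75th percentile LARS, SARS and VARS2 turned to 0.24, 0.50 and 0.42, the sign of their partners. HARS2 and YARS2 turned to 0.14 and 0.15, opposite to theirs. With the main normalization both genes passed the threshold in 2 pairs, and in both they went opposite ways. TARS was 0.50 where TARS2 was -1.21, a difference of -1.71, and WARS was -0.54 where WARS2 was 0.84, a difference of 1.38. The cytosolic calls were the less stable: TARS and WARS each kept theirs in 1 of 10 fits that left out an array, TARS2 and WARS2 in 10. WARS was at -0.05 (adjusted p = 0.826 from limma) with scaling to the 75th percentile. In 4 further pairs 1 gene passed: YARS at -1.82 beside YARS2 at -0.12, AARS at -1.65 beside AARS2 at 0.16, LARS2 at 0.81 beside LARS at -0.15, and NARS at 0.41 beside NARS2 at -0.15. The closest pair was RARS at 0.41 and RARS2 at 0.44. Each probe was tested against its own level, and the levels of the enzymes of a pair were not compared.

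**Figure D4:**
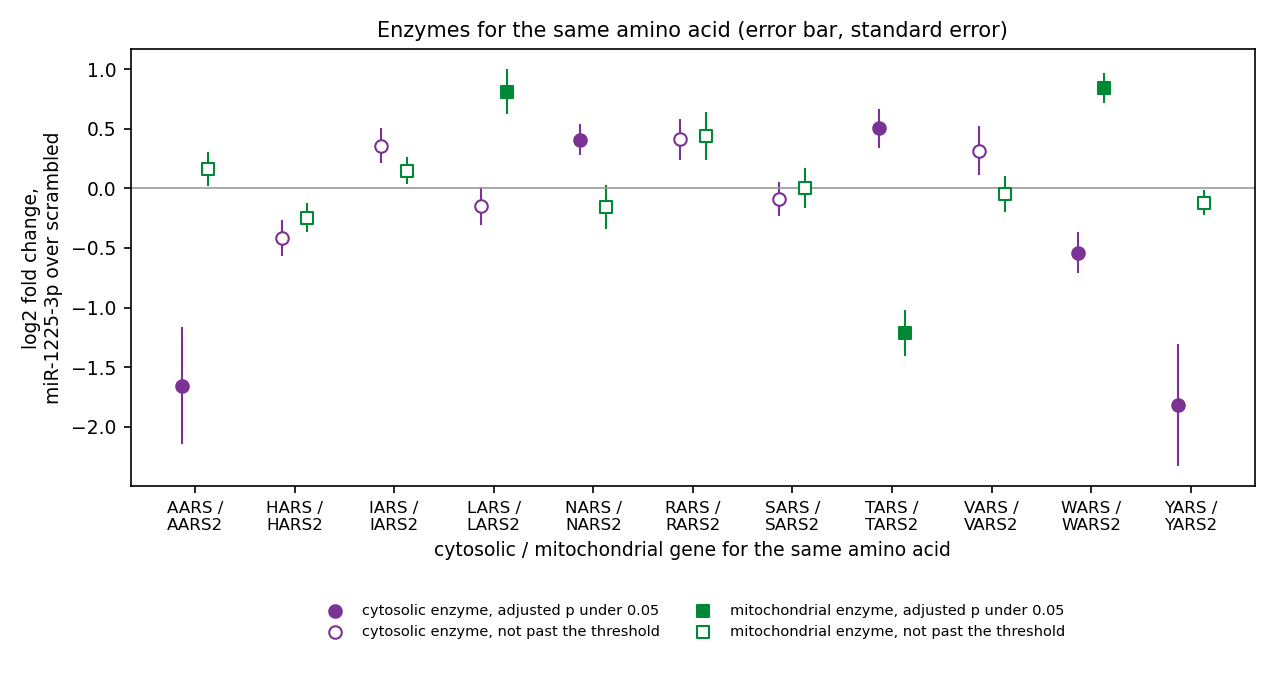
Log2 fold change, miR-1225-3p over scrambled, of the cytosolic gene (circle) and the mitochondrial gene (square) for each of 11 amino acids, with the standard error as a bar; filled symbols passed an adjusted p of 0.05 in limma. The symbols of threonine and tryptophan are filled for both genes and lie on opposite sides of 0.

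Several cytosolic synthetase promoters hold the core of the element that C/EBP and ATF4 dimers are known to bind in amino acid response genes. Promoters from RefSeq (GRCh38.p14, 250 bases before to 50 after the start) were searched on both strands for TGATGNAA. The motif was present in 7 of 16 cytosolic genes with a promoter in the table (43.75%), in 1 of 14 mitochondrial genes and in 0 of 2 scaffold genes, beside 4.46% of all 27305 genes with a promoter of that length. The cytosolic holders were AARS, CARS, GARS, IARS, MARS, NARS and TARS, and the mitochondrial one was YARS2. A match is a description of the letters and not a bound site. The windows of the 4 holders past the threshold are shown because they moved in different directions, AARS at -1.65 against MARS at 0.85, TARS at 0.50 and NARS at 0.41. The motif is in capitals as read on the gene's strand, 5′ to 3′, with up to 30 bases on each side and at most 30 bases past the start.
AARS (chr16:70289656-70289723, minus strand, motif beginning 187 bases before the start): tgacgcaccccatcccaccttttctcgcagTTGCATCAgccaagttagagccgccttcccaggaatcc
MARS (chr12:57488034-57488097, plus strand, 4 bases before the start): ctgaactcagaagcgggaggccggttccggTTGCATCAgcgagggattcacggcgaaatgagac
NARS (chr18:57621807-57621852, minus strand, 14 bases after the start): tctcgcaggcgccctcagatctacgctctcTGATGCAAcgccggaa
TARS (chr5:33440937-33440994, plus strand, 2 bases after the start): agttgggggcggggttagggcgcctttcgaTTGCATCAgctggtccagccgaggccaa

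AARS, MARS and TARS carried the same 8 letters, TTGCATCA, and NARS their reverse complement. AARS, the one that fell, had its match farthest from the annotated start. Of the remaining cytosolic holders, IARS had a log2 change of 0.36 and GARS of -0.27, neither past the threshold. KARS and WARS, which passed it in opposite directions, had no match in the table's windows, and YARS was not in the table.

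Of 18 amino acid response genes tested, 5 passed, 1 higher and 4 lower (27.8%, beside 35% of all genes). PHGDH, the enzyme of the first step of serine synthesis, read 10.20, 9.95, 9.78, 9.34 and 11.53 on the miR-1225-3p arrays and 11.61 to 11.94 on the scrambled arrays, without overlap, and fell by 1.60 on the log2 scale (adjusted p = 0.0148 from limma), and its log2 change without replicate 5 was -1.94. EIF2AK4, which encodes GCN2, had a log2 change of -1.51 (adjusted p = 0.0205 from limma), but was well above background on 2 miR-1225-3p and 5 scrambled arrays, so that it entered the test only through the group in which it was higher. The stress gene SESN2, well above background on 3 miR-1225-3p arrays, had -1.38 (adjusted p = 0.041 from limma), and its call was lost with quantile normalization, with the slide as a block, by the methods' t-test and without any one of 8 of the 10 arrays (adjusted p up to 0.0818 from limma). ATF4 itself had a log2 change of 0.10 and its target ASNS, asparagine synthetase, 0.20, with adjusted p of 0.444 and 0.277 from limma. The other called genes were CHAC1 at -1.21 and PSAT1 at 0.43. PSAT1 lost its call without any one of miR-1225-3p replicates 2 and 3 and scrambled replicates 1 to 5. With scaling to the 75th percentile 11 passed, 7 higher and 4 lower. The calls over all genes then moved from 2947 higher and 3144 lower to 4562 higher and 2585 lower. With miR-1225-3p replicate 5 left out and the main normalization, 9 passed, 4 higher and 5 lower, beside 55.4% of all genes.

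Charging partners are the proteins that edit, finish or carry charged tRNA. Of 17 tested, 6 passed, 5 higher and 1 lower (35.3%, beside 35% of all genes). Once miR-1225-3p replicate 5 was left out, 12 passed, 7 higher and 5 lower, and the share of all genes called was 55.4%. GATC, a subunit of the amidotransferase that makes mitochondrial glutaminyl-tRNA, read 7.52, 7.43, 7.33, 8.02 and 6.47 on the miR-1225-3p arrays and 5.41, 5.54, 5.96, 5.85 and 6.10 on the scrambled arrays, without overlap. It rose by 1.58 on the log2 scale (SE 0.267, adjusted p = 0.0136 from limma), or by 1.81 without replicate 5, whereas GATB, of the same enzyme, had -0.39 (adjusted p = 0.0697 from limma). PSTK, the kinase that prepares the selenocysteine tRNA, rose by 0.71 (adjusted p = 0.0152 from limma). EEF1D, of the exchange factor that reloads the elongation factor with GTP, fell by 0.52 (adjusted p = 0.0345 from limma), but had 0.13 with scaling to the 75th percentile. At that setting 7 of the 17 passed, all higher, beside 41.1% of all genes, 26.3% higher and 14.9% lower. The call of EEF1D was also lost with quantile normalization (adjusted p = 0.0924 from limma), with the slide as a block, on slide 1, and without any one array other than miR-1225-3p replicate 5.

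Of 9 mitochondrial translation factors tested, which start, lengthen and end chains made with the mitochondrial tRNAs, 6 passed, 5 higher and 1 lower (66.7%, beside 35% of all genes), with a median log2 change of 0.48. MTIF2, an initiation factor, rose by 0.71 (adjusted p = 0.0208 from limma) and GFM2, a ribosome recycling factor, by 0.68 (adjusted p = 0.0157 from limma). TUFM, the factor that brings charged tRNA to the mitochondrial ribosome, fell by 0.83 (adjusted p = 0.0401 from limma), reading 12.25, 11.67, 11.71, 11.42 and 13.03 on the miR-1225-3p arrays and 12.72 to 12.96 on the scrambled arrays. TUFM was at -0.29 (adjusted p = 0.198 from limma) with scaling to the 75th percentile. At that setting 7 of the 9 passed, all higher, beside 41.1% of all genes, 26.3% higher and 14.9% lower. The call of TUFM was lost without any one array other than miR-1225-3p replicate 5. Its exchange factor TSFM rose by 0.67. With miR-1225-3p replicate 5 left out, 7 of the 9 passed, 6 higher and 1 lower, beside 55.4% of all genes. The count of 6 was 3 on slide 1, beside 4500 of all genes, and 0 on slide 2, beside 0 of all genes in limma, and at an unadjusted p of 0.05 the counts were 7 and 1, beside 7423 and 1220 of all genes.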

How the data were processed

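Total RNA from MEG-01 cells was hybridized to 10 Agilent arrays, 5 per group. The authors deposited scanner output of Feature Extraction 10.7.3.1 (per the labels), whose processed signal is an intensity after background correction, and a table of normalized log2 values for 29271 probes. From the intensities, log2 processed signals of 58717 spots were normalized by cyclic loess (limma 3.58.1, R 4.3.3, 3 iterations). Outlier spots were set missing and the spots of a probe averaged. Of 42405 probes, 24910 matched a RefSeq symbol (GRCh38.p14), and 20648 were kept, for which 3 or more arrays of a group were well above background. Probes without a symbol were counted as genes under their array identifier, also in the shares over all genes. The kept probe of highest mean signal represented its gene. Groups were compared with limma and Benjamini-Hochberg adjustment over 17379 genes, and single genes by an exact two-sided permutation test. The members and the other gene lists were chosen with earlier results of these data known. Per-array values were printed for the 5 called cytosolic and 5 called mitochondrial genes of largest change (4 mitochondrial genes were called), GARS, KARS, AIMP1 and AIMP2, and the 3 largest called genes of each other list were named. EEF1E1, ATF4, ASNS, GATB, TSFM, CHAC1, PSAT1 and the arrays of EARS2, TARS, PHGDH, GATC, EEF1E1 and TUFM were added after the values were seen. Alternatives covered scaling, the authors' values, background, dim and flagged spots, probe choice, test, blocks, slides and leaving out arrays. No tRNA, protein or 3′ UTR data were used here.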

Additional observations from a re-analysis of the deposited data

Results flagged for a closer look

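Of 90 groups of 5 arrays examined for genes named in the lists, 11 had an array whose gap to its neighbour was large against the range of the group, where chance gives about 4.5 (1 in 20). On miR-1225-3p replicate 5 this held for 6 genes: TARS at 11.65, with the nearest array at 12.28, WARS at 11.76 (nearest 11.11), TARS2 at 7.91 (nearest 7.14), WARS2 at 8.77 (nearest 9.08), AIMP1 at 11.22 (nearest 11.47) and AIMP2 at 8.95 (nearest 9.24). In each of these, the array lay on the side of the scrambled arrays. QARS was at 13.12 on miR-1225-3p replicate 3, above the nearest array at 12.90. IARS2 was at 10.51 and the dim gene SESN2 at 2.81 on miR-1225-3p replicate 4, each below the other arrays of its group, for SESN2 the nearest being at 4.95. YARS2 was at 8.61 on scrambled replicate 5 (nearest 8.77), and GFM2 at 9.86 on scrambled replicate 1 (nearest 10.22).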

How the results depend on the processing

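None of the 12 called synthetase and scaffold genes changed direction under any of 27 alternatives, and 6 of them (KARS, CARS2, LARS2, TARS2, WARS2 and AIMP2) stayed called when any single array was left out. All 12 were called with quantile normalization, with the authors' values and with normexp background, 11 with scaling to the 75th percentile, 11 with the slide as a block, 11 by the methods' t-test, 10 on slide 1, 6 with no filter on dim probes, and 0 with no normalization between arrays or on slide 2. The cause was not tested. The signal over background limits EARS2 and PARS2.

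Counts over all genes, and among cytosolic, mitochondrial, scaffold, charging partner, mitochondrial translation factor and amino acid response genes, were 1266, 0, 0, 0, 0, 0 and 1 with no normalization between arrays. On slide 2 they were all 0 by limma (1220 genes at an unadjusted p of 0.05). With array weights they were 12389, 16, 9, 2, 8, 12 and 12 in the order all genes, cytosolic, mitochondrial, scaffold, mitochondrial translation factor, charging partner and amino acid response. With no filter on dim probes, 3411 of all genes passed, 1 cytosolic, 3 charging partner, 3 mitochondrial translation factor and 3 amino acid response. Slide 1 gave 2 charging partner genes, 3 mitochondrial translation factor genes and 0 scaffold genes. The methods' t-test and scaling to the 75th percentile each gave 2 scaffold genes, beside 4677 and 7147 of all genes, and the latter 11 amino acid response genes. Leaving out single arrays gave 2129 to 9624 of all genes, 1 to 11 cytosolic (each of the 10 arrays moved this count by over 1.5 times), 4 to 6 mitochondrial, 1 to 2 scaffold, 2 to 12 charging partner, 2 to 7 mitochondrial translation factor and 3 to 9 amino acid response. The fewest genes were without miR-1225-3p replicate 2 and the most without miR-1225-3p replicate 5.

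The cytosolic median log2 fold change of -0.10 was 0.44 with scaling to the 75th percentile, 0.017 with no normalization between arrays and -0.11 to -0.05 with single arrays left out. The mitochondrial median of -0.05 was 0.29 with scaling to the 75th percentile and -0.10 to 0.0020 with single arrays left out. Cytosolic minus mitochondrial was 0.15 with scaling to the 75th percentile and also with no normalization, -0.17 with genes well above background on all 10 arrays, -0.15 on slide 2 and -0.089 to 0.011 with single arrays left out. The scaling shifts all genes of an array alike, so the value of 0.15 was bound to be the same with no normalization.

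Genes that turned sign were not past the threshold in either setting, except EEF1D. With scaling to the 75th percentile DARS was 0.44, EEF1D 0.13, EPRS 0.37, GARS 0.12, HARS2 0.14, LARS 0.24, SARS 0.50, VARS2 0.42 and YARS2 0.15. With quantile normalization NARS2 was 0.036, SARS 0.024, VARS2 0.044 and YARS2 0.038, and with no normalization AARS2 was -0.019, DARS 0.017, SARS 0.079 and SARS2 -0.14. SARS2 was -0.021 in the authors' values and -0.00033 on slide 1, and IARS was -0.35 with its probes averaged. On slide 1 EARS2 was 0.23, FARS2 0.056 and NARS2 0.065, and on slide 2 VARS2 was 0.046. With single arrays left out SARS2 was -0.065 to 0.11, NARS2 -0.24 to 0.0020 and VARS2 -0.13 to 0.044.

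The replicate numbers are shared by the groups, and the arrays were not treated as pairs. Over all genes the correlations of same-numbered deviations were -0.22, -0.08, -0.40, 0.07 and -0.15, which cannot exclude a pairing in single genes. A block for the replicate number lowered the standard error of YARS from 0.511 to 0.370 and of AARS from 0.492 to 0.362. It raised that of WARS2 from 0.126 to 0.155 and of CARS2 from 0.145 to 0.181. With the replicate block, limma called 0 of all genes (7474 at an unadjusted p of 0.05), 0 cytosolic, 0 mitochondrial, 0 scaffold, 0 charging partner, 0 mitochondrial translation factor and 0 amino acid response genes.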
